A study of Homo sapiens with 6 samples.

Results

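The clustered protocadherins are 59 genes of human chromosome 5, out of 34913 genes with transcripts in the data. They were taken as every GENCODE 29 gene on that chromosome whose symbol starts with PCDHA, PCDHB or PCDHG: 16 alpha, 19 beta and 24 gamma genes, 6 of them annotated as pseudogenes. On GRCh38 the alpha cluster lies at chr5:140786136-141012347, the beta cluster at chr5:141051135-141249365 and the gamma cluster at chr5:141330571-141512981. Their poly(A) RNA was measured in THP-1, an established human cell line from acute monocytic leukaemia that grows in suspension. One group was THP-1 obtained from the cell bank DSMZ (3 libraries) and the other THP-1 obtained from ATCC (3 libraries). All 6 cultures were untreated THP-1, grown side by side in RPMI medium with 20% fetal bovine serum for 48 h, split, and grown for another 24 h to log phase. The labels describe separate expansions of each source, so p-values measure the spread between expansions. Each source is 1 stock of 1 line, so the effect of the source and that of the stock received from it cannot be told apart.

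Protocadherins are calcium-dependent adhesion proteins of the cadherin superfamily. Each alpha or gamma gene has its own promoter and a large variable exon that encodes the extracellular domain, the membrane span and the start of the cytoplasmic tail, and this exon is spliced to constant exons shared by the whole cluster. Beta genes are mostly made of a single large exon and lack the shared tail. In neurons, each cell uses its own selection of these promoters, which depends on CTCF and cohesin, and the proteins bind the same isoform on the facing cell, which gives a neuron its surface identity. The C-type genes (PCDHAC1, PCDHAC2, PCDHGC3, PCDHGC4 and PCDHGC5) lie at the ends of the alpha and gamma clusters and are known for wide expression in neurons without this choice. In GENCODE 29 the alpha constant exons were 59, 89 and 2721 bases long and were shared by 15 genes, and the gamma constant exons were 59, 89 and 2035 bases long and were shared by 22 genes.

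The promoters of a cluster resemble each other, and these stretches are shown because they are what the members of a cluster have in common upstream of exons that differ. RefSeq (GRCh38.p14) gave a promoter of 300 bases, from 250 before to 50 after the gene start, for 47 of the 59 members, all on the plus strand. The 10-letter word found in the most beta promoters was GGTGGCGCTG (CAGCGCCACC on the other strand), in 12 of 14 against 0.276% of all 35116 promoters searched. For alpha it was TGATGTCGCT (AGCGACATCA), in 8 of 13 against 0.0342%, and for gamma GCGCCGCTGT (ACAGCGGCGC), in 9 of 20 against 0.131%. Each word was picked as the most shared one of its own cluster, so its high share there follows from the choice. The 35116 promoters include the members. All 3 words hold CGCT, the core of the sequence element known from protocadherin promoters, which alone was in 46 of the 47 promoters and in 70.0% of all. Below are, for each cluster, the 2 genes with the highest mean TPM over the 6 libraries (transcripts per 1000000, which is per length) and 1 gene with the lowest, among those with a promoter. Capitals mark letters equal to the word of the cluster at the best match.
PCDHB2 (chr5:141094530-141094589): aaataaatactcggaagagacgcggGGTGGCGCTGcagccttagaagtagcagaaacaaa
PCDHB5 (chr5:141135165-141135224): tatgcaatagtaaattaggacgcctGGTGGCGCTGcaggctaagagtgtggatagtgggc
PCDHB7 (chr5:141172552-141172611): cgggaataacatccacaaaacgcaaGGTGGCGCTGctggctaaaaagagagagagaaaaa
PCDHAC2 (chr5:140966323-140966382): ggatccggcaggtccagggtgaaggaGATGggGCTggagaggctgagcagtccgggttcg
PCDHA4 (chr5:140806964-140807023): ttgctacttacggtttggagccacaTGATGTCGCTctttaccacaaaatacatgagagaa
PCDHA6 (chr5:140827882-140827941): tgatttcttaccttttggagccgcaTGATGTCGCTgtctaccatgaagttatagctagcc
PCDHGC3 (chr5:141475867-141475926): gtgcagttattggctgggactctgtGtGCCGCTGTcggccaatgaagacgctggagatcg
PCDHGB4 (chr5:141387604-141387663): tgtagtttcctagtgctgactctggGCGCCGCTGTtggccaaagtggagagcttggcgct
PCDHGA7 (chr5:141382636-141382695): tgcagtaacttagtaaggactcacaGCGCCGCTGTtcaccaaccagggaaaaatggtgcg

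The beta word stood at full length in PCDHB2 and PCDHB5, the most abundant beta genes, and in PCDHB7, the least abundant of those with a promoter. It was absent from the beta promoters of PCDHB1 and PCDHB14. PCDHGC3 matched the gamma word in 9 of 10 letters, and the C-type gene PCDHAC2 matched the alpha word in only 7. None of the 3 words was in a promoter of another cluster. These matches describe the windows searched.

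The libraries held 23413428, 28515838 and 37119721 estimated counts for DSMZ and 28198941, 25632895 and 27811159 for ATCC. The second ATCC library stood apart from the other 2: the median of its log2 ratio to them was -0.82 over the 10% of genes poorest in G and C and 0.32 over the 10% richest. Among tested members it was below both other ATCC libraries in 3 of 4 alpha, 9 of 12 beta and 12 of 16 gamma genes, so the main results are given with and without it. RNA of myeloid genes was present in both sources. All 12 myeloid genes listed were tested, and 0 of them were under 1 CPM (counts per 1000000 after TMM scaling) in all 6 libraries. Their summed level was 2357 to 2499 CPM in DSMZ and 2120 to 2620 CPM in ATCC. Of the 12, 3 were called higher in DSMZ and 4 higher in ATCC, against 24.1% and 25.7% of all tested genes. Of 14 neuron markers, 12 were under 1 CPM in all 6 libraries, with SYT1, GAP43, NEFL and SLC17A6 at 0, and their sum was 23.6 to 27.3 CPM in DSMZ and 3.04 to 4.42 CPM in ATCC. That sum was mostly SNAP25, a synaptic fusion protein, at 22.4 to 25.8 CPM in DSMZ and 0.565 to 0.795 CPM in ATCC. MAP2, a dendrite protein, was at 0.0278 to 0.0868 CPM in DSMZ and 0.719 to 2.65 CPM in ATCC. The 7 glia markers summed to 147 to 152 CPM in DSMZ and 110 to 123 CPM in ATCC, the 8 fibroblast markers to 10.1 to 15.3 and 11.8 to 14.2 CPM, the 7 epithelial markers to 6.29 to 7.88 and 11.4 to 12 CPM, and the 5 endothelial markers to 0.667 to 0.868 and 1.17 to 1.58 CPM. Under 1 CPM in all 6 libraries were 4 of the glia, 5 of the fibroblast, 4 of the epithelial and all 5 endothelial markers, so the sums rested on few genes. Their part in the results below was not tested.

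Protocadherin RNA was less abundant in DSMZ cells than in ATCC cells, and the makeup of the clusters differed. All 59 genes summed to 39.3, 35.4 and 31.7 TPM in the DSMZ libraries and to 73.3, 59.7 and 63.7 TPM in the ATCC libraries. The beta genes summed to 5.98, 6.71 and 6.54 TPM in DSMZ and 41.6, 31.4 and 34.1 TPM in ATCC, a 5.56-fold higher mean in ATCC. The alpha genes summed to 0.953, 0.898 and 1.31 TPM in DSMZ and 4.12, 3.81 and 4.45 TPM in ATCC, a 3.91-fold higher mean in ATCC, and in CPM, which is not per length, the alpha sum was 2.47-fold higher in ATCC. For both clusters the highest DSMZ library was below the lowest ATCC library. The gamma genes summed to 32.4, 27.8 and 23.9 TPM in DSMZ and 27.6, 24.5 and 25.2 TPM in ATCC, and the libraries of the sources overlapped. Beta genes made up 18.3% ± 2.78 of the protocadherin TPM in DSMZ and 54.2% ± 2.17 in ATCC (SD, n = 3 each), and gamma genes 78.7% ± 3.58 in DSMZ and 39.4% ± 1.69 in ATCC. The beta majority in ATCC held in TPM only. In CPM the beta genes averaged 16.2 in DSMZ and 81.1 in ATCC, and the gamma genes 90.5 in DSMZ and 86.3 in ATCC. In bulk RNA, fewer cells that express a gene and less RNA per cell cannot be told apart.

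**Figure D1:**
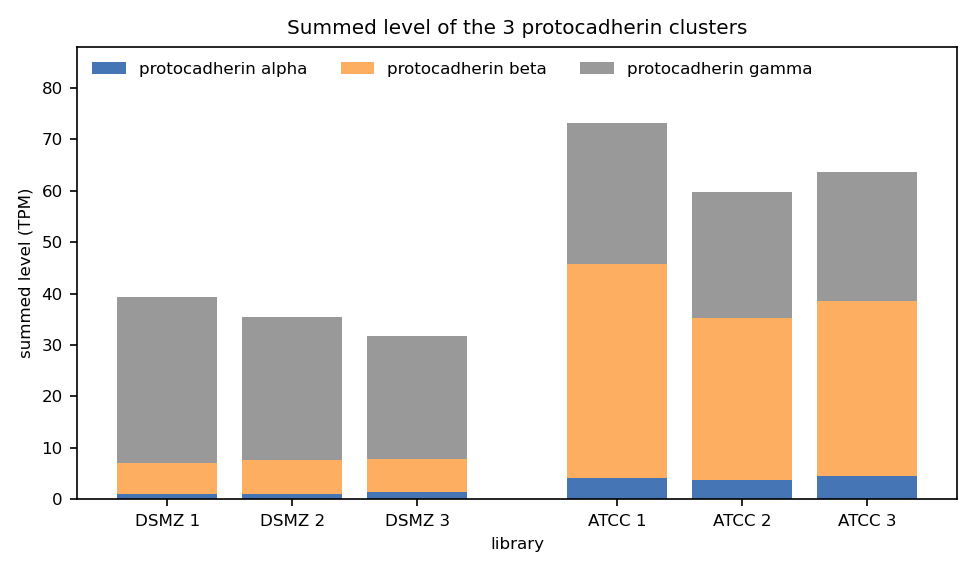
Summed TPM (vertical axis) of the alpha, beta and gamma genes, stacked, in each of the 6 libraries (horizontal axis). The beta segment is 5.98 to 6.71 TPM in the DSMZ libraries and 31.4 to 41.6 TPM in the ATCC libraries, while the gamma segment is of similar height in both.

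Each gene was tested with edgeR's quasi-likelihood test, and log2 fold changes are DSMZ minus ATCC. Of all 14577 genes tested, 49.8% passed an adjusted p of 0.05, 24.1% as higher in DSMZ and 25.7% as higher in ATCC. The share that passed depended on the libraries used. It was 64.0% without the second ATCC library (ATCC 2), 50.2% without ATCC 1 and 39.7% without ATCC 3. Leaving out 1 of the DSMZ libraries gave 37.1 to 38.8%. Of the 59 members, 32 had enough counts to be tested, and 27 did not, 6 alpha genes with 0 counts in every library among them. Among the members tested, 2 were higher in DSMZ and 14 higher in ATCC, and the share called was 50%, against the 49.8% of all genes. The members' median log2 fold change was -0.54, against 0.012 for all tested genes. A member low in 1 source could pass the filter on low counts through the other source alone, so that its call is not independent of the filter. This was so for PCDHB2, PCDHB3, PCDHB8, PCDHB16, PCDHGA2 and PCDHGA6 through ATCC, and for PCDHA10, PCDHGC4, PCDHGC5, PCDHGB5, PCDHGA9 and PCDHGB8P through DSMZ.

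**Figure D2:**
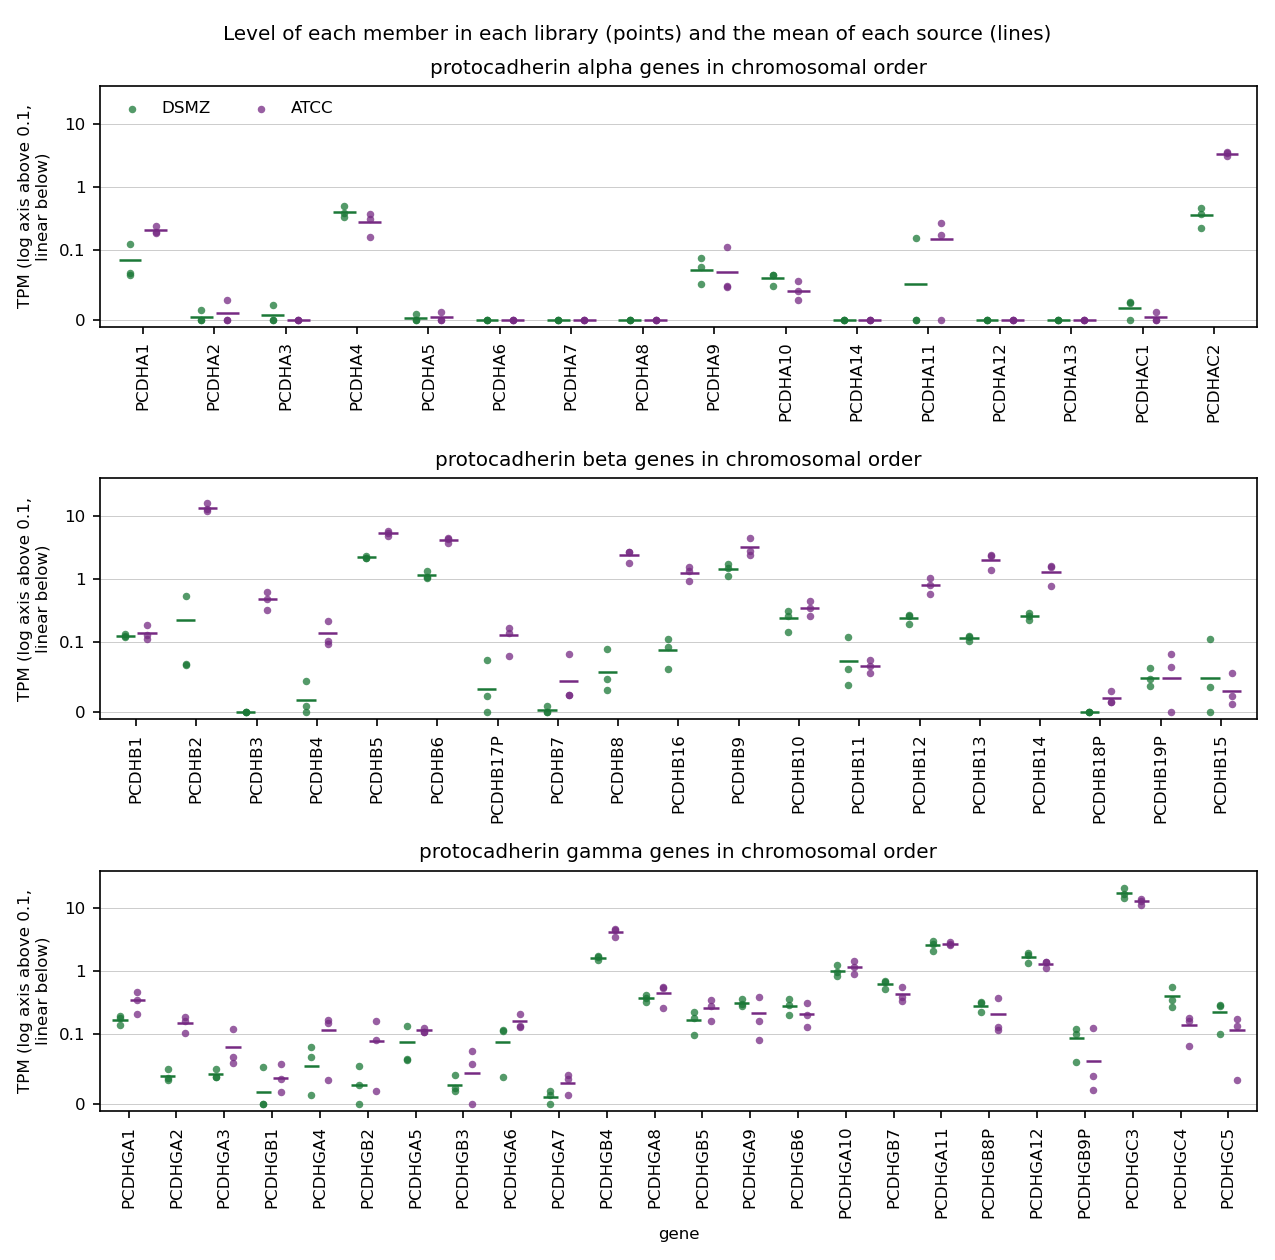
TPM (vertical axis, logarithmic above 0.1 and linear below) of every member in each library, in chromosomal order, with DSMZ points and means left of the ATCC ones. PCDHB2, PCDHB3 and PCDHB8 show the widest gaps between the sources, and most gamma genes show overlapping points.

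In the beta cluster, 10 of the 12 tested genes were higher in ATCC and 0 were higher in DSMZ, and 7 of the 19 genes were not tested. Over all genes, 25.7% were called as higher in ATCC. The count of 0 by edgeR's quasi-likelihood test was also 0 at an unadjusted p under 0.05, and 0 by DESeq2 and limma. Of the 10, 6 (PCDHB5, PCDHB6, PCDHB9, PCDHB12, PCDHB13 and PCDHB14) passed the filter in all 6 libraries. In all 10 the DSMZ libraries lay below the ATCC libraries without overlap, which held for 62.3% of all tested genes in either direction. Without the second ATCC library the 10 calls were again 10, while 64.0% of all genes were called.

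PCDHB2 was the beta gene with the most RNA in ATCC cells. It was at 0.234, 0.359 and 0.234 CPM in DSMZ and at 22.4, 22.5 and 19.8 CPM in ATCC. The difference was -6.33 on the log2 scale (SE 0.19), an 80.4-fold lower level in DSMZ, with an adjusted p of 2.15e-06 by edgeR's quasi-likelihood test. The DSMZ estimate was not 0: 24 estimated counts fell on the gene in the 3 DSMZ libraries, against 1784 in ATCC. Of the 31-letter words of PCDHB2 transcripts, 24.4% also occur in other members, so reads of those could be among the 24. Its share of the beta TPM was 3.44% ± 4.09 in DSMZ and 38.2% ± 2.63 in ATCC (SD, n = 3 each). The wide SD in DSMZ came with 1 library, DSMZ 2 at 8.16%, where 0.451 TPM fell on a 519-base transcript that the other DSMZ libraries had at 0. The full-length single-exon transcript PCDHB2-201 (4126 bases) was at 0.0683, 0.0636 and 0.0665 TPM in DSMZ and at 5.34, 5.33 and 4.35 TPM in ATCC. The short spliced transcript PCDHB2-203 (565 bases) was at 0 in every DSMZ library and at 7.24, 4.0 and 5.41 TPM in ATCC.

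PCDHB3, next to PCDHB2 on the chromosome, had 0 counts in all 3 DSMZ libraries and 106 in the ATCC libraries, at 1.62, 0.897 and 1.30 CPM. With 3 counts over the DSMZ libraries as the floor, it was at least 37.2-fold lower in DSMZ (adjusted p 0.000494, edgeR's quasi-likelihood test). PCDHB8 was at 0.104, 0.195 and 0.0709 CPM in DSMZ and at 5.67, 4.09 and 5.88 CPM in ATCC, a log2 difference of -5.46 (SE 0.32). Only 43.9% of the 31-letter words of PCDHB8 transcripts occur in no other gene, so reads of near-identical beta genes could be assigned to it, and its value is uncertain to that extent. PCDHB16 was at 0.391, 0.257 and 0.287 CPM in DSMZ and at 6.15, 4.08 and 5.50 CPM in ATCC (log2 -4.11, SE 0.27). PCDHB13 was at 0.448, 0.516 and 0.531 CPM in DSMZ and at 9.82, 6.13 and 9.59 CPM in ATCC (log2 -4.07, SE 0.26). These 4 genes, with PCDHB2, were lower in DSMZ by 16.8-fold or more, and in DSMZ none of the 5 reached 1 CPM in any library.

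PCDHB5, PCDHB9 and PCDHB6 had the most RNA per length of the beta genes in DSMZ cells, at means of 2.21, 1.47 and 1.15 TPM in DSMZ and 5.32, 3.24 and 4.17 TPM in ATCC, and differed less. Of the PCDHB9 level in DSMZ, 0.816 TPM fell on PCDHB9-203, a transcript of 616 bases with a mean of 6.79 counts. By mean CPM in DSMZ, PCDHB6 (3.07) was above PCDHB9 (2.16). PCDHB5 was at 6.03, 5.86 and 6.67 CPM in DSMZ and at 15.2, 13.7 and 14.8 CPM in ATCC, a log2 difference of -1.23 (SE 0.12, adjusted p 0.000145 by edgeR's quasi-likelihood test). PCDHB6 was at 2.86, 3.50 and 2.84 CPM in DSMZ and at 10.9, 12 and 9.77 CPM in ATCC (log2 -1.83, SE 0.15). Both were above 1 CPM in every library of both sources, and both had groups that did not overlap. PCDHB9 was at 2.58, 1.86 and 2.05 CPM in DSMZ and at 4.64, 4.63 and 3.66 CPM in ATCC, the smallest called beta difference (log2 -0.99, SE 0.19, adjusted p 0.00358). PCDHB12 averaged 0.722 ± 0.107 CPM in DSMZ and 2.43 ± 0.601 CPM in ATCC (log2 -1.78, SE 0.26). PCDHB14 averaged 0.766 ± 0.196 CPM in DSMZ and 3.89 ± 1.26 CPM in ATCC (SD, n = 3 each; log2 -2.34, SE 0.32). In ATCC both were lowest in the second library, at 1.78 CPM for PCDHB12 and 2.43 CPM for PCDHB14. Without that library the log2 differences were -1.95 and -2.58.

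PCDHB1 and PCDHB10 did not pass the test. PCDHB1, the first beta gene and the one whose promoter lacked the beta word along with PCDHB14, averaged 0.899 ± 0.037 CPM in DSMZ and 0.983 ± 0.231 CPM in ATCC. Its log2 difference was -0.11 (SE 0.24, adjusted p 0.727, edgeR's quasi-likelihood test). PCDHB10 averaged 0.641 ± 0.229 CPM in DSMZ and 0.916 ± 0.232 CPM in ATCC (log2 -0.52, SE 0.32, adjusted p 0.214). In both genes the libraries of the sources overlapped. Of the beta genes that hold the word and were tested, 8 were called (PCDHB2, PCDHB3, PCDHB5, PCDHB8, PCDHB16, PCDHB9, PCDHB12 and PCDHB13) and PCDHB10 was not. PCDHB14, without the word, was called too, and PCDHB6, also called, had no promoter among those searched. A link between the word and the calls was not tested.

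The 7 untested beta genes were PCDHB4, PCDHB7, PCDHB11, PCDHB15 and the pseudogenes PCDHB17P, PCDHB18P and PCDHB19P. PCDHB4 had 2.03 counts in the DSMZ libraries and 34.1 in the ATCC libraries. The ratio of its depth-scaled counts was 0.0558, with a 95% counting interval of 0.00649 to 0.218. With no filter on low counts, edgeR's quasi-likelihood test gave PCDHB4 a log2 difference of -3.92 and an adjusted p of 0.00145. PCDHB7 had 1.00 count in DSMZ and 11.2 in ATCC, and PCDHB17P 7.26 in DSMZ and 26.1 in ATCC. PCDHB11 was at a similar low level, 0.255 ± 0.142 CPM in DSMZ and 0.225 ± 0.0297 CPM in ATCC. PCDHB15 had 7.33 counts in DSMZ and 8.19 in ATCC, and PCDHB19P 10.2 in DSMZ and 9.07 in ATCC. PCDHB18P had 0 counts in DSMZ and 4.07 in ATCC.

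**Figure D3:**
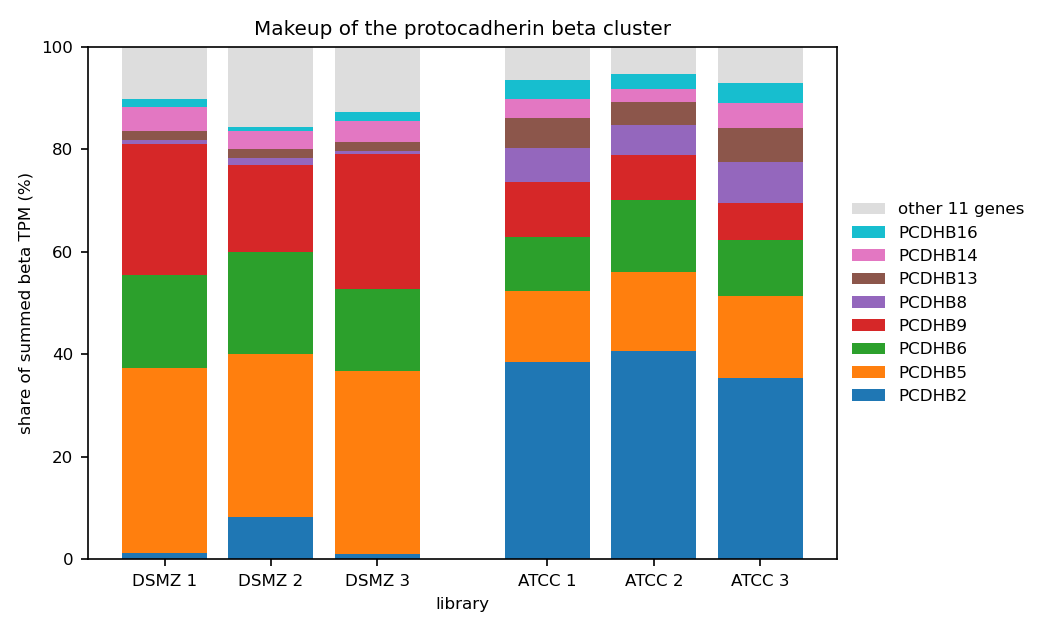
Share of the summed beta TPM (vertical axis, percent) held by each of the 8 most abundant beta genes and by the others together, in each library (horizontal axis). PCDHB5 holds 31.9 to 36.2% in DSMZ libraries and 13.8 to 15.9% in ATCC libraries, and PCDHB2 holds 1.02 to 8.16% in DSMZ libraries and 35.4 to 40.7% in ATCC libraries.

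In the alpha cluster, RNA with the constant exons came mostly from PCDHAC2, the last gene of the cluster. PCDHAC2 was at 1.73, 1.10 and 0.771 CPM in DSMZ and at 12.3, 9.82 and 11.9 CPM in ATCC, without overlap. Its log2 difference was -3.28 (SE 0.27, adjusted p 7.84e-05 by edgeR's quasi-likelihood test), a 9.69-fold lower level in DSMZ. It held 33.2% ± 7.75 of the alpha TPM in DSMZ and 81.6% ± 1.43 in ATCC (SD, n = 3 each), and 19.1% ± 7.73 of the alpha CPM in DSMZ and 73.3% ± 3.27 in ATCC. The transcript PCDHAC2-201, which joins the variable exon to all 3 constant exons, was at 0.340, 0.220 and 0.133 TPM in DSMZ and at 2.52, 1.82 and 2.33 TPM in ATCC. Of the 4 tested alpha genes only PCDHAC2 was called higher in ATCC, and 2 alpha genes were so called without DSMZ 1, DSMZ 3 or ATCC 2, PCDHA1 being the other. By edgeR's quasi-likelihood test 0 were called higher in DSMZ, also at an unadjusted p under 0.05 and by DESeq2 and limma. The shares over all genes were 25.7% higher in ATCC and 24.1% higher in DSMZ. In either direction they were 38.8% without DSMZ 1, 38.1% without DSMZ 3 and 64.0% without ATCC 2.

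The other tested alpha genes were alternate genes, PCDHA4, PCDHA9 and PCDHA10. PCDHA4 was at 3.08, 4.41 and 3.61 CPM in DSMZ and at 3.23, 1.48 and 2.81 CPM in ATCC, with overlapping libraries (log2 0.56, SE 0.29, adjusted p 0.141 by edgeR's quasi-likelihood test). Its lowest value was in the second ATCC library, and without that library the log2 difference was 0.31. All of its counts fell on PCDHA4-204, a transcript of 10557 bases without constant exons, and its transcripts with constant exons were listed at 0. PCDHA10 averaged 0.640 ± 0.108 CPM in DSMZ and 0.438 ± 0.132 CPM in ATCC, all on a transcript of 12358 bases without constant exons (log2 0.58, SE 0.30, adjusted p 0.148). PCDHA9 averaged 0.424 ± 0.106 CPM in DSMZ and 0.404 ± 0.227 CPM in ATCC, on a transcript of 6900 bases (adjusted p 0.972). Its direction changed with the settings.

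PCDHA1, the first gene of the cluster, was below the filter. It was at 0.134, 0.142 and 0.278 CPM in DSMZ and at 0.804, 0.337 and 1.05 CPM in ATCC, without overlap. With no filter on low counts its log2 difference was -1.91 with an adjusted p of 0.00756 by edgeR's quasi-likelihood test. Of its forms with all constant exons, PCDHA1-203 had 0 counts in every DSMZ library and 22.8, 0.0322 and 29.5 in ATCC, and PCDHA1-202 had 0.423, 0 and 0 in DSMZ and 0, 6.61 and 0 in ATCC. The second ATCC library differed from the other 2 in which form held the counts. PCDHA6, PCDHA7, PCDHA8, PCDHA12, PCDHA13 and the pseudogene PCDHA14 had no count in any of the 6 libraries, and 3 counts over the libraries of a source would have been 0.0344 CPM in DSMZ and 0.0363 CPM in ATCC. PCDHA2, PCDHA3, PCDHA5, PCDHA11 and the C-type gene PCDHAC1 had 1 to 5 counts over the 3 libraries of DSMZ and 0 to 4.28 over those of ATCC. All alpha genes other than PCDHAC2 together summed to 0.700 ± 0.135 TPM in DSMZ and 0.758 ± 0.0554 TPM in ATCC, and their libraries overlapped.

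The forms of alpha RNA differed too. Transcripts with at least 1 constant exon summed to 0.386, 0.220 and 0.637 TPM in DSMZ and to 3.64, 3.40 and 4.05 TPM in ATCC. Part of this rested on short transcripts with few counts. PCDHAC2-202, of 550 bases, averaged 0.124 TPM on 0.989 counts in DSMZ and 1.13 TPM on 6.90 counts in ATCC. In DSMZ 3 it held 0.335 TPM on 2.78 counts, and the 700-base PCDHA11-203 held 0.155 TPM on 2.05 counts. Transcripts with the variable exon only summed to 0.567, 0.678 and 0.677 TPM in DSMZ and to 0.484, 0.404 and 0.402 TPM in ATCC. The groups did not overlap in either form, and lay in opposite order. Of the alpha counts, 19.8% ± 7.15 in DSMZ and 77.9% ± 1.33 in ATCC fell on transcripts with constant exons. The estimated counts of transcripts that share exons depend on each other, which limits these shares.

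**Figure D4:**
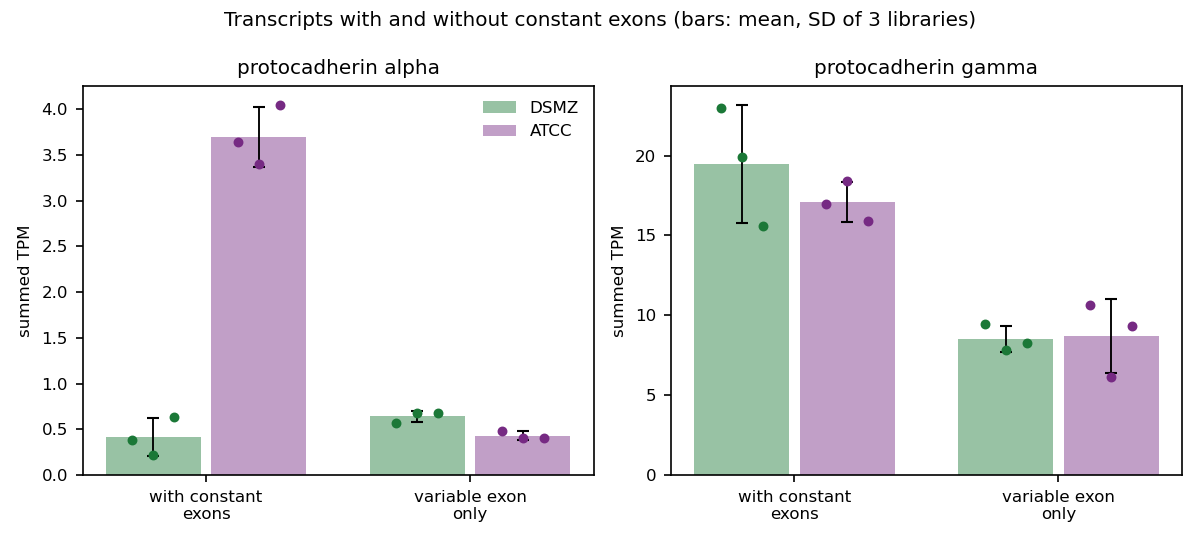
Summed TPM (vertical axis) of alpha transcripts (left panel) and gamma transcripts (right panel) with at least 1 constant exon or with the variable exon only. Bars are means of 3 libraries with their SD and points are libraries, DSMZ left of ATCC. Alpha transcripts with constant exons are at 0.220 to 0.637 TPM in DSMZ and 3.40 to 4.05 TPM in ATCC, whereas the gamma points overlap.

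The gamma cluster held most of the protocadherin RNA in DSMZ cells, and most of its genes did not pass the test. Of 16 tested genes, 2 were higher in DSMZ (PCDHGC3 and PCDHGC4), 3 were higher in ATCC (PCDHGB4, PCDHGA1 and PCDHGA2) and 11 were not called, and 8 of the 24 genes were not tested. Over all genes, 24.1% were called as higher in DSMZ and 25.7% as higher in ATCC. Without ATCC 2, 1 gene was called higher in DSMZ and 6 higher in ATCC. The count higher in DSMZ was 1 without DSMZ 1 or DSMZ 3, and 0 without DSMZ 2 or ATCC 1. Calls over all genes were then 64.0% without ATCC 2, 50.2% without ATCC 1 and 37.1 to 38.8% without a DSMZ library. The A-type genes summed to 6.57 ± 0.992 TPM in DSMZ and 6.96 ± 0.979 TPM in ATCC. The B-type genes summed to 2.83 ± 0.139 TPM in DSMZ and 5.36 ± 0.994 TPM in ATCC, mostly through PCDHGB4.

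PCDHGC3, a C-type gene, had the most RNA of all 59 members in DSMZ cells. In ATCC cells only PCDHB2 had a higher mean TPM (13.6 against 12.9), of which 5.55 TPM fell on the 565-base transcript PCDHB2-203. By mean CPM, PCDHGC3 was the highest member in ATCC too, at 40.1 against 21.6 for PCDHB2. PCDHGC3 was at 62.2, 57.5 and 45.6 CPM in DSMZ and at 39.7, 44.8 and 35.9 CPM in ATCC. The lowest DSMZ library was just above the highest ATCC library. The log2 difference was 0.46 (SE 0.15, adjusted p 0.0338 by edgeR's quasi-likelihood test), a 1.37-fold higher level in DSMZ. The call was lost when DSMZ 1, DSMZ 2, ATCC 1 or ATCC 3 was left out (adjusted p 0.16, 0.134, 0.0834 and 0.154), and without ATCC 2 it was 0.00439. It was also lost with upper quartile scaling (0.0915), limma on log2(TPM + 0.5) or log2(TPM + 1) (0.0783 and 0.0803) and the length offset (0.0561). Its transcript with all constant exons, PCDHGC3-201, averaged 10.6 ± 2.37 TPM in DSMZ and 8.20 ± 0.520 TPM in ATCC. That transcript was not called (log2 0.33, SE 0.17, adjusted p 0.306).

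PCDHGB4 was the second gamma gene by level in ATCC. It was at 6.80, 5.90 and 6.81 CPM in DSMZ and at 17.7, 14.1 and 17.3 CPM in ATCC, without overlap, and its log2 difference was -1.33 (SE 0.14, adjusted p 0.000214 by edgeR's quasi-likelihood test). It rested on 2 transcripts that moved alike: PCDHGB4-201, with the 3 constant exons, averaged 0.768 ± 0.131 TPM in DSMZ and 1.93 ± 0.225 TPM in ATCC (log2 -1.37, SE 0.24). PCDHGB4-202, with the variable exon only, averaged 0.893 ± 0.0294 TPM in DSMZ and 2.34 ± 0.789 TPM in ATCC (log2 -1.42, SE 0.26). Only 26.6% of its 31-letter words occur in no other gene, the lowest share among called members, so its level could hold reads of overlapping gamma transcripts.

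The other called gamma genes were low. PCDHGA1 and PCDHGA2 are the first genes of the cluster, nearest to the beta genes. PCDHGA1 was at 0.607, 0.670 and 0.498 CPM in DSMZ and at 1.5, 0.719 and 1.2 CPM in ATCC (log2 -0.97, SE 0.32, adjusted p 0.038 by edgeR's quasi-likelihood test). It lost the call without any 1 of the libraries DSMZ 1, 2 or 3 or ATCC 1 or 3, with adjusted p of 0.0788, 0.065, 0.135, 0.0979 and 0.0846, and with DESeq2 (0.0521), voom (0.0555), limma on log2(TPM + 0.5) or log2(TPM + 1) (0.0932 and 0.106) and thinning (0.0639). PCDHGA2 was at 0.130, 0.143 and 0.196 CPM in DSMZ and at 0.578, 0.414 and 0.708 CPM in ATCC (log2 -1.80, SE 0.35, adjusted p 0.00418), and limma on the same TPM scales gave 0.0514 and 0.0826. PCDHGC4 was at 0.607, 0.991 and 1.06 CPM in DSMZ and at 0.388, 0.189 and 0.620 CPM in ATCC, and the libraries overlapped (log2 1.17, SE 0.41, adjusted p 0.0448). It lost the call without DSMZ 2, DSMZ 3, ATCC 1 or ATCC 2, with adjusted p of 0.114, 0.146, 0.0832 and 0.0665, and with DESeq2 (0.0508) or protein-coding transcripts only (0.0521).

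Several gamma genes with higher levels gave no call. PCDHGA11 averaged 8.63 ± 0.680 CPM in DSMZ and 9.79 ± 0.724 CPM in ATCC (log2 -0.18, SE 0.12, adjusted p 0.245 by edgeR's quasi-likelihood test). PCDHGA12 averaged 5.26 ± 1.17 CPM in DSMZ and 4.49 ± 0.934 CPM in ATCC, and PCDHGA10 averaged 3.86 ± 0.781 CPM in DSMZ and 4.36 ± 0.836 CPM in ATCC. In all 3 genes the libraries overlapped. PCDHGB7 averaged 2.18 ± 0.657 CPM in DSMZ and 1.43 ± 0.471 CPM in ATCC, PCDHGA8 2.08 ± 0.231 CPM in DSMZ and 2.46 ± 0.878 CPM in ATCC, and PCDHGB6 1.11 ± 0.323 CPM in DSMZ and 0.801 ± 0.318 CPM in ATCC (SD, n = 3 each). PCDHGA8 passed the test without ATCC 2 (log2 -0.50, adjusted p 0.0368), as did PCDHGB5 (log2 -0.88, adjusted p 0.041). PCDHGA9 and the pseudogene PCDHGB8P passed without ATCC 3, at log2 1.28 and 1.24 (adjusted p 0.0325 and 0.0328).

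PCDHGA6, PCDHGB5, PCDHGA9, PCDHGB8P and PCDHGC5 were tested at means under 1 CPM and were not called with all libraries. PCDHGC5, the last gene of the cluster, averaged 0.905 ± 0.428 CPM in DSMZ and 0.449 ± 0.274 CPM in ATCC (log2 1.01, SE 0.54, adjusted p 0.159 by edgeR's quasi-likelihood test). The 8 untested genes were PCDHGA3, PCDHGA4, PCDHGA5, PCDHGA7, PCDHGB1, PCDHGB2, PCDHGB3 and the pseudogene PCDHGB9P. All 8 lie between PCDHGA2 and PCDHGC3, and none had a mean above 0.454 CPM in either source. Gamma transcripts with constant exons held 73.2% ± 3.46 of the gamma counts in DSMZ and 68.8% ± 6.54 in ATCC, with overlap.

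Along the chromosome, the members higher in ATCC lay mostly in one stretch. From PCDHAC2 through the beta cluster to PCDHGA2 there were 22 members, of which 15 were tested, 13 were called higher in ATCC and 0 higher in DSMZ. The 15 members before it had 3 tested and 0 called, and the 22 after it had 14 tested, 2 called higher in DSMZ and 1 higher in ATCC. Over all genes, 24.1% were called as higher in DSMZ and 25.7% as higher in ATCC. PCDHA1, before the stretch, was below the filter. With no filter on low counts it was higher in ATCC (log2 -1.91, adjusted p 0.00756 by edgeR's quasi-likelihood test). The stretch was chosen after the values were seen and was not tested.

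**Figure D5:**
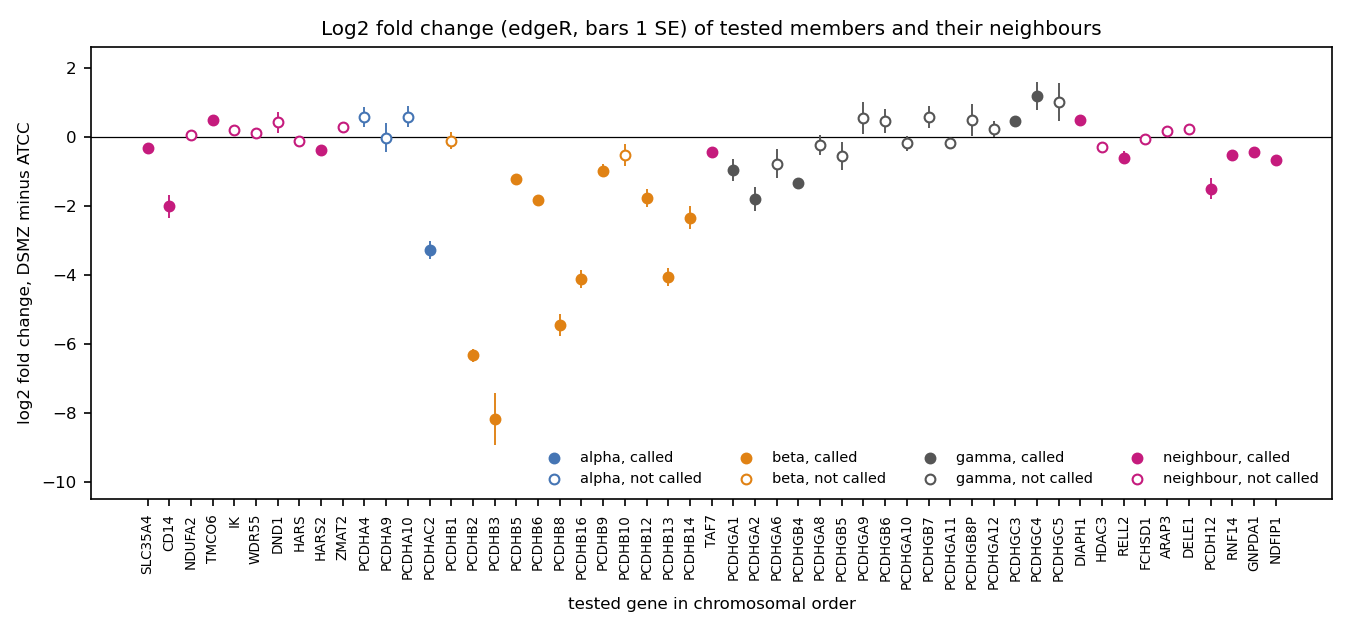
Log2 fold change, DSMZ minus ATCC (vertical axis, bars 1 SE of edgeR's quasi-likelihood test), of each tested member and of the neighbouring tested genes, in chromosomal order (horizontal axis). Filled points passed an adjusted p of 0.05. Points from PCDHAC2 to PCDHGA2 lie below 0, down to -6.33 for PCDHB2 and further for PCDHB3, which has 0 counts in DSMZ. The neighbours lie between -2.01 (CD14) and 0.50 (TMCO6).

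Of 138 transcripts of the members, 42 were tested, 0 were higher in DSMZ and 15 were higher in ATCC by edgeR's quasi-likelihood test, against 11.2% called of all 54833 tested transcripts (5.04% as higher in DSMZ and 6.2% as higher in ATCC). The count of 0 was also 0 at an unadjusted p under 0.05, where 18 were lower in DSMZ. Of the 15, 12 were beta transcripts. Without ATCC 3 the 15 became 7. The beta transcripts PCDHB9-201 and PCDHB9-203 were not called, with adjusted p of 0.0604 and 0.141.

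The genes around the clusters had a median log2 difference of -0.11. The tested members' medians were -2.09 for beta, 0.27 for alpha and 0.019 for gamma genes. The 10 nearest tested protein-coding genes on each side and TAF7, a TFIID subunit gene between the beta and gamma clusters, made 21 neighbours. Of these, 2 were higher in DSMZ and 9 higher in ATCC, where 24.1% and 25.7% of all genes were. The median log2 difference was 0.083 for the 10 before the clusters and -0.37 for the 10 after them. The neighbours higher in DSMZ numbered 5 without ATCC 2 and 1 without DSMZ 1, DSMZ 2 or ATCC 3, and those higher in ATCC numbered 4 without DSMZ 1 or DSMZ 3 and 5 without ATCC 3. Calls over all genes were then 64.0% without ATCC 2, 39.7% without ATCC 3 and 37.1 to 38.8% without a DSMZ library. The other tested genes of chromosome 5 had 40.1% called and a median log2 difference of 0.042. TAF7 averaged 105 ± 2.83 CPM in DSMZ and 141 ± 19.4 CPM in ATCC (log2 -0.43, SE 0.12, adjusted p 0.0187 by edgeR's quasi-likelihood test), and the call was lost without DSMZ 1, DSMZ 3 or ATCC 3 (adjusted p 0.0602, 0.0726 and 0.0585). Next to the alpha cluster, the zinc finger gene ZMAT2 was at log2 0.28 (SE 0.10, adjusted p 0.0536) and passed without ATCC 2 (adjusted p 0.00146). The mitochondrial histidyl-tRNA synthetase HARS2 was at -0.39 (SE 0.10, adjusted p 0.0132), and the cytosolic HARS at -0.11 (SE 0.094, adjusted p 0.356). HARS2 lost the call without DSMZ 1, 2 or 3 (adjusted p 0.0695, 0.0878 and 0.0554), with limma on log2(TPM + 0.5) or log2(TPM + 1) (0.0642 and 0.0649) and with the length offset (0.103). After the gamma cluster, the formin DIAPH1 was higher in DSMZ, with 381 ± 20.1 CPM in DSMZ and 270 ± 22.2 CPM in ATCC (log2 0.50, SE 0.094, adjusted p 0.00354). The histone deacetylase HDAC3 was at -0.29 (SE 0.12, adjusted p 0.0773) and passed without ATCC 1 (adjusted p 0.0247). RELL2 was at -0.60 (SE 0.18, adjusted p 0.0263) and lost the call without DSMZ 1, DSMZ 3 or ATCC 3 (adjusted p 0.0775, 0.102 and 0.0533). Neither side held a gene with a difference as large as that of PCDHB2, and the largest were CD14 at -2.01 and PCDH12 at -1.5. CD14 differed more than the called beta genes PCDHB5 (-1.23), PCDHB6 (-1.83), PCDHB9 (-0.99) and PCDHB12 (-1.78). PCDH12 differed more than PCDHB5 and PCDHB9.

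Other genes of the protocadherin pathway were taken from lists. Of 14 genes of CTCF, cohesin and its regulators, which shape promoter choice in the clusters, 3 were higher in DSMZ and 3 higher in ATCC, where 24.1% and 25.7% of all genes were. The median log2 difference was 0.51, against 0.012 for all genes. CTCF itself averaged 142 CPM in DSMZ and 133 CPM in ATCC and was not called (log2 0.095, adjusted p 0.355 by edgeR's quasi-likelihood test). Higher in DSMZ were the cohesin ring subunit SMC3 (log2 1.56, SE 0.31), the cohesin release factor WAPL (1.29, SE 0.24) and the cohesin subunit STAG1 (1.18, SE 0.30). Higher in ATCC were the SMC3 deacetylase HDAC8 (-0.83, SE 0.10) and the cohesin subunits RAD21 (-0.67) and SMC1A (-0.57). The second ATCC library was at -1.19 (log2, against the other ATCC libraries) for SMC3, -0.93 for WAPL and -1.13 for STAG1. Without it, 8 genes of the list were higher in DSMZ and 4 higher in ATCC, and without ATCC 1 the count higher in DSMZ was also 8. Calls over all genes were then 64.0% without ATCC 2 and 50.2% without ATCC 1, against 49.8% with all libraries. SMC3, WAPL and STAG1 kept their calls when any 1 library was left out.

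Of 21 regulators of DNA methylation and silencing, some of which act on the clusters in mouse or human cells, 8 were higher in DSMZ and 3 higher in ATCC (median log2 0.26), and 49.8% of all genes were called in either direction. The largest log2 difference was that of TET1, an enzyme that oxidises methylcytosine, at 35.4, 26.4 and 35.8 CPM in DSMZ and 7.42, 3.48 and 6.85 CPM in ATCC (log2 2.46, SE 0.28, adjusted p 0.000312 by edgeR's quasi-likelihood test). HELLS, a chromatin remodeller that promotes DNA methylation, was at log2 1.78 (SE 0.24), and TET2, a second methylcytosine oxidase, at 1.29 (SE 0.32). SMCHD1, a chromatin protein known in mouse to keep the clusters silent, averaged 249 ± 5.37 CPM in DSMZ and 118 ± 57.2 CPM in ATCC (log2 1.08, SE 0.33, adjusted p 0.0291). In the second ATCC library TET1, HELLS, TET2 and SMCHD1 were at -1.01, -0.88, -1.19 and -1.33 against the other ATCC libraries, and SMCHD1 lost the call without DSMZ 1, DSMZ 3 or ATCC 3 (adjusted p 0.0575, 0.0713 and 0.0552), with limma on log2(TPM + 0.5) or log2(TPM + 1) (0.066 and 0.0663) and with the length offset (0.0544). Without ATCC 2, 12 genes of the list were higher in DSMZ and 5 higher in ATCC, and without DSMZ 2 the count higher in ATCC was 1. Calls over all genes were then 64.0% without ATCC 2 and 37.1% without DSMZ 2.

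Of 20 non-clustered protocadherins and related large cadherins, 12 were tested, 3 were higher in DSMZ and 4 higher in ATCC (median log2 -0.32), against 49.8% called of all genes. CELSR3, a seven-pass cadherin of axon tract formation, was at 45.3, 49.6 and 47.9 CPM in DSMZ and 2.15, 2.88 and 2.78 CPM in ATCC, without overlap. Its log2 difference was 4.19 (SE 0.14, adjusted p 2.98e-06 by edgeR's quasi-likelihood test), opposite in sign to the beta genes. PCDH7, a non-clustered protocadherin, was at log2 1.35 (SE 0.19) and CELSR1, of planar cell polarity, at 1.22 (SE 0.090). PCDH12, an endothelial protocadherin gene that is also a neighbour of the gamma cluster, was at -1.5 (SE 0.30), and lost the call with limma on log2(TPM + 0.5) or log2(TPM + 1) (adjusted p 0.137 and 0.146) and the length offset (0.113). FAT1, FAT4 and CELSR2 were the other genes higher in ATCC.

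Of 26 processing and signalling partners of protocadherins, 6 were higher in DSMZ and 6 higher in ATCC (median log2 -0.078), against 49.8% called of all genes. ADAM10, the sheddase of the protocadherin ectodomain, was not called (log2 0.32, adjusted p 0.368 by edgeR's quasi-likelihood test). PTK2, the focal adhesion kinase, whose inhibition by the alpha and gamma tails is known from mouse neurons, was at 1.26, 1.56 and 2.2 CPM in DSMZ and 21.6, 23 and 32.2 CPM in ATCC (log2 -3.91, SE 0.25, adjusted p 3.18e-05). The WAVE complex subunits CYFIP2 (log2 -2.33, SE 0.16) and NCKAP1 (-1.70, SE 0.30) and the gamma-secretase subunit PSEN2 (-2.09, SE 0.17) were lower in DSMZ as well. Other subunits of the same complexes were higher in DSMZ: ABI1 (log2 1.10, SE 0.12), ABI2 (0.91, SE 0.12) and, at a mean of 0.529 CPM in DSMZ and 0.154 CPM in ATCC, WASF3 (1.73, SE 0.54) of WAVE, and PSENEN (0.63, SE 0.13) of gamma-secretase. CYFIP1 (-0.13) and NCKAP1L (0.17), paralogues of the WAVE complex subunits, were not called.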

How the data were processed

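Poly(A) RNA of THP-1 cells was, per the labels' protocols, sequenced from stranded KAPA libraries. The submitters' processing notes name kallisto 0.43.0, Trimmomatic 0.35, bcl2fastq 2.20 and the build GRCh38. Which transcript annotation was indexed is not stated in any label. The authors deposited kallisto's estimated counts, which are not normalized, and TPM values, which add up to 1000000 in each library. Transcripts were assigned to GENCODE 29 genes by ID (91.0%) or, on alternative sequences, by symbol (2.42 to 2.85% of the counts); 0.181 to 0.199% of the counts had no gene and were left out. Estimated counts were summed per gene and rounded, filtered with filterByExpr, scaled by TMM and tested with edgeR 4.0.16 in R 4.3.3 and no covariate other than the source, with Benjamini-Hochberg adjustment over all tested genes and a threshold of 0.05. Each standard error is the size of the log2 fold change over the square root of its F statistic. Spread between libraries of a source, as a biological coefficient of variation, was 15.9%. TPM sums were not tested. No 2 libraries of a source were alike within sampling noise (smallest chi-square per degree of freedom 4.36). For genes at 0 in a source, 3 counts over its libraries served as the upper limit, and intervals have 95% confidence; both cover counting error only. The step was tested on simulated data. Members described in full had a mean of at least 1 CPM in a source, or were the top 5 of their cluster. Transcripts named had at least 0.5 TPM in a source, at most 3 per gene. Neighbours named were the 3 nearest on each side and called genes between the clusters. From each list up to 4 called genes of at least 1 CPM with the largest change were named; CD14, PCDHB2-205, the paralogues and any others named were picked with their values in view. The members and lists were chosen with earlier results of these data known. Alternatives were other normalizations, DESeq2 1.42.0, limma 3.58.1 (voom, and log2(TPM + 0.5) or log2(TPM + 1)), other filters, length and GC corrections, transcript subsets, a replicate block, thinning and leaving out each library. Promoters were compared with pandas 2.3.3 in Python 3.11.15, and figures drawn with matplotlib 3.10.9.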

Additional observations from a re-analysis of the deposited data

How the results depend on the processing

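The counts of beta genes (10 higher in ATCC, 0 higher in DSMZ) stayed within 1.5-fold under all alternatives run, and leaving out 1 library at a time gave 10. PCDHAC2, the 10 called beta genes and PCDHGB4 kept direction and call under every alternative that gave a value. The alpha count higher in ATCC was 2 with no filter on low counts and 1 to 2 leaving out 1 library. The gamma count higher in DSMZ was 1 with upper quartile scaling, DESeq2, limma on log2(TPM + 0.5) or log2(TPM + 1), a mean of at least 1 CPM, the length offset, protein-coding transcripts only or the replicate block, and 0 to 3 leaving out 1 library. The gamma count higher in ATCC was 1 with limma on either TPM scale, a mean of at least 1 CPM or thinning, and 2 to 6 leaving out 1 library. Leaving out 1 library gave 7 to 16 member transcripts higher in ATCC, 1 to 5 neighbours higher in DSMZ and 4 to 10 higher in ATCC, 3 to 8 cohesin genes higher in DSMZ and 2 to 4 higher in ATCC, 6 to 12 silencing genes higher in DSMZ and 1 to 5 higher in ATCC, 3 to 5 non-clustered cadherins higher in ATCC, and 4 to 8 partners higher in DSMZ and 6 to 8 higher in ATCC. Cohesin genes higher in DSMZ were 7 with DESeq2 or the GC correction, 6 with no filter and 5 with voom or the length offset. Silencing genes higher in ATCC were 5 with the GC correction. Non-clustered cadherins higher in ATCC were 2 with limma on either TPM scale or the length offset. The share of all tested genes called, 49.8% as designed, changed with the settings too. Leaving out 1 library gave 37.1 to 64.0%, highest without ATCC 2. It was 62.1% with the GC correction, 32.4% with no filter, 44.0% with the length offset and 44.1% with limma on either TPM scale. The replicate block with GC correction gave 61.1%, and the other alternatives gave 47.8 to 51.1%. The summed alpha level was at -1.97 (log2) in TPM, -1.31 in CPM and 0.57 over transcripts without constant exons. PCDHA9 (-0.021 with all libraries, not called) turned positive with voom (0.067), limma on log2(TPM + 0.5) (0.0089) and log2(TPM + 1) (0.0044), the replicate block (0.028) and without DSMZ 3 (0.19) or ATCC 2 (0.52), and ranged from -0.27 to 0.52 leaving out 1 library. PCDHB1 ranged from -0.22 to 0.072 leaving out 1 library and was positive without ATCC 1; its lowest value was -0.30, with the replicate block and GC correction. The causes of these changes were not tested, other than the samples or genes each setting removes. Upper quartile scaling moved the median of all genes to -0.067, and 42.4% of calls were then higher in DSMZ against 48.4%.

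Samples of the same replicate number did not all deviate together (correlations 0.0126, 0.0803 and 0.162). DSMZ 2 and DSMZ 3 correlated best with their own number and DSMZ 1 with ATCC 2 (0.0258), so 1 of 3 went against the numbers, and 2 of the 3 correlations were under 0.1; the samples share only a number. With the replicate block, 1 gamma gene was higher in DSMZ, 6 cohesin genes were higher in DSMZ (7 with the GC correction too, and then 5 silencing genes higher in ATCC) and 1 member transcript was higher in ATCC, against 15. Calls over all genes were 48.1% with the replicate block and 61.1% with the GC correction too. PCDHGA1 (adjusted p 0.0625, and 0.0585 with the GC correction) and PCDHGC4 (0.0518) lost their calls. Low counts limit the untested members most.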
